A study of Mus musculus with 2 samples.

Results

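Integrins and laminins were compared between 1 library of C3H10 cells transfected with the antisense oligonucleotide (ASO) against MALAT1 and 1 library of C3H10 cells that received the negative control ASO (ASO NC). The members were chosen by symbol, as Itga or Itgb followed by digits, the lettered alpha chains Itgav, Itgal, Itgam, Itgax and Itgae, and Lama, Lamb or Lamc followed by digits. The count table held 35 such genes among 46095, and 32 of them had at least 10 counts summed over the libraries, as did 17356 genes in all. C3H10 (C3H/10T1/2) is a mouse mesenchymal line that turns into fat-storing cells on induction. The labels give the strain as C57BL/6 and describe a fibroblast precursor with adipogenic ability. The labels give no genetic change in either culture. Both received an ASO at 100 nM before confluence and were then differentiated with isobutyl-1-methylxanthine (0.5 mM), dexamethasone (5 mM), troglitazone (0.5 mg/L) and insulin (10 ng/mL). Insulin alone at 10 ng/mL followed after day 2, and the study collected the cells at day 6. The sequence of the ASO used for this library is not given in the sources used here. Both cultures are of 1 line, and the share of cells that took up the ASO is not given there either.

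The libraries held 58147539 counts (ASO NC) and 61653549 counts (ASO MALAT1). Malat1, the target, had 170402 and 45396 counts, which left 24.7% of the control level. The intervals given below are 95% limits from counting error alone. With 1 library per condition no difference has a replicate check, and each comparison is between these libraries rather than between conditions. PCR copies of a molecule make the intervals too narrow. The log2 fold change is that of ASO MALAT1 over ASO NC after scaling of the libraries, so negative values are lower in the knockdown library. As a scale for these values, the middle 95% of the 8251 genes with a mean of 1000 or more counts ran from -0.62 to 0.47. For the 3888 genes with 100 to 1000 counts it ran from -1.03 to 0.71, and for the 5217 genes below 100 counts from -2.77 to 2.34.

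Integrins are receptors of the cell surface made of an alpha and a beta chain. Their outer parts bind matrix proteins, and their short inner tails recruit talins and kindlins, which connect them to actin and to focal adhesion kinases. The alpha chain largely sets the ligand. Laminins are secreted trimers of an alpha, a beta and a gamma chain that polymerise into the basement membrane, the thin sheet that surrounds each mature fat cell. Fibroblast-like precursors sit mainly in a fibronectin and collagen matrix, and a shift from Itga5 towards Itga6 has been described when preadipocytes differentiate.

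A few chains carried most of the level of each class. Levels between genes are given in TPM, here the reads per length of the longest annotated transcript, scaled to the same sum in each library over all genes with a length. Itgb1, the beta chain shared by most matrix-binding integrins, stood at 589 TPM in ASO NC and 647 TPM in ASO MALAT1. Itga5, the alpha chain of the classical fibronectin receptor, followed among the integrins at 236 and 277 TPM. Itgb5, a beta chain that pairs with Itgav in a vitronectin receptor, reached 77.9 and 80.2 TPM. Itgav stood at 69.3 and 85.8 TPM, and Itga6, a laminin receptor chain, at 50.6 and 35.3 TPM. Itgb5 and Itgav lay close together on this scale. Among the laminins, Lama4, Lamb1, Lamb2 and Lamc1 lay close together, between 209 and 222 TPM in ASO NC and between 187 and 252 TPM in ASO MALAT1. All other members lay at or below 20.1 TPM in both libraries. The closeness of Itgb5 to Itgav, and of Lamc1 to the other main laminin chains, depends on the length used. The longest transcript is 7054 bases for Itgav and 7622 for Lamc1, and the coding length 3132 and 4821. By coding length Itgav would stand above Itgb5, and Lamc1 above Lama4, Lamb1 and Lamb2.

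**Figure D1:**
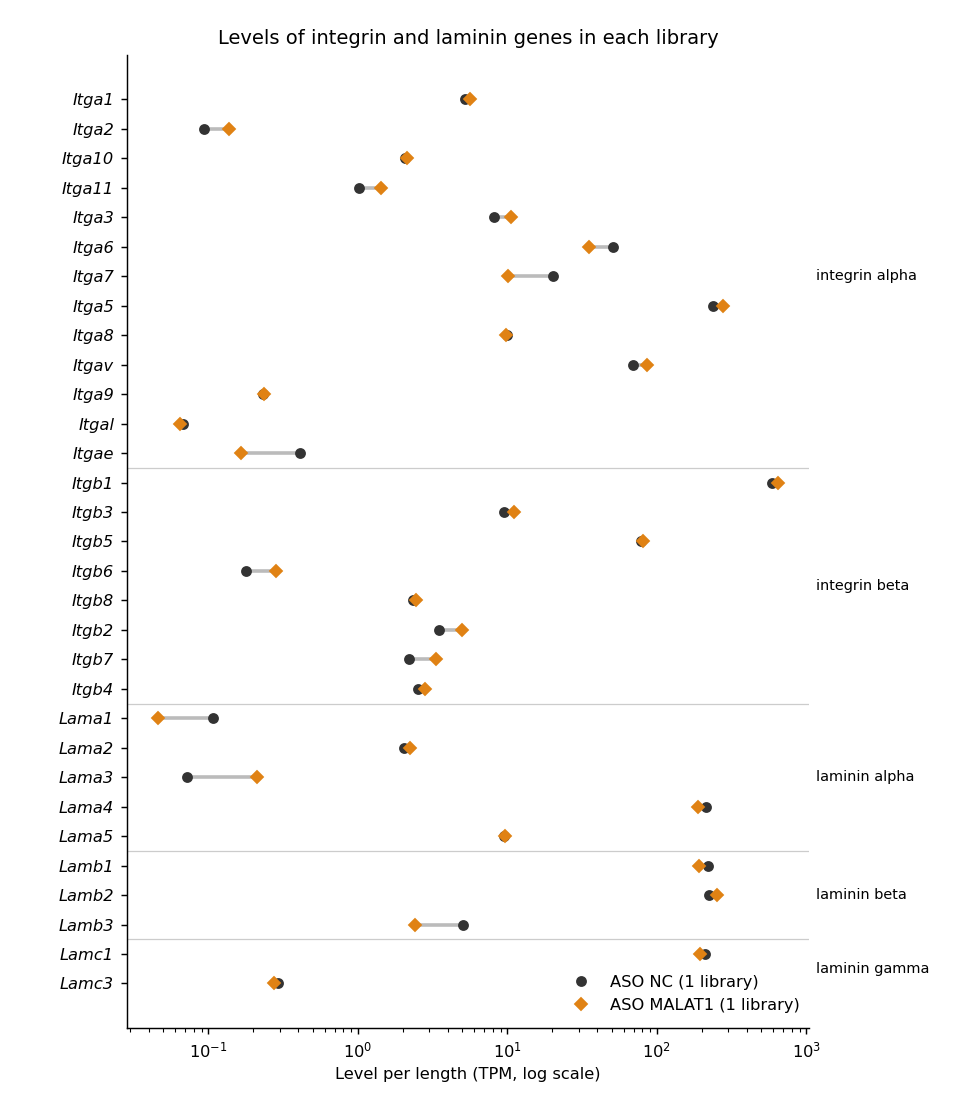
Level per length of 31 of the 32 members with at least 10 summed counts, in TPM on a log scale, with 1 point for the ASO NC library and 1 for the ASO MALAT1 library. Itgb1 is the highest member in both libraries (589 and 647 TPM), and Itga7 and Lamb3 are among the members whose points lie clearly apart.

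The sequences upstream of the 4 integrin chains with the highest levels are shown because they carried most of the integrin RNA here. Pairs of these chains are known as receptors for fibronectin and vitronectin, and neither pairing nor binding was measured. Each is the run of 250 bases before the transcription start in RefSeq (GRCm38.p6), written 5′ to 3′ on the gene's strand. The windows are chr15:103366792-103367041 (minus strand) for Itga5, chr2:83724147-83724396 (plus strand) for Itgav, chr8:128685404-128685653 (plus strand) for Itgb1 and chr16:33829415-33829664 (plus strand) for Itgb5. Capitals mark the GC box GGGCGG on either strand and, in Itgb1 only, the letters GGAATG, to which TEAD factors bind.
Itga5: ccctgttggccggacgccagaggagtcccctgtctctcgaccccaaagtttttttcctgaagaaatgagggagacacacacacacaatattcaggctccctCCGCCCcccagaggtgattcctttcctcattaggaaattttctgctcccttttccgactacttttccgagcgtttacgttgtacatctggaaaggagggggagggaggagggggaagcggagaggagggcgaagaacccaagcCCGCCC
Itgav: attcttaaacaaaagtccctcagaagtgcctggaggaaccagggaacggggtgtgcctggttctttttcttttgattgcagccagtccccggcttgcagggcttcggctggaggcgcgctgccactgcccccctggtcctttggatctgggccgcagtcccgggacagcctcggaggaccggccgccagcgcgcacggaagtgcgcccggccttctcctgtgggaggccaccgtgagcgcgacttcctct
Itgb1: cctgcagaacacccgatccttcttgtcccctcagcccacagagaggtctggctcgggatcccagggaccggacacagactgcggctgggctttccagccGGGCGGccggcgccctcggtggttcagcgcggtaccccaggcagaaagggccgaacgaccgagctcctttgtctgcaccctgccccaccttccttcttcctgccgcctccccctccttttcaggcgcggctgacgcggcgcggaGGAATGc
Itgb5: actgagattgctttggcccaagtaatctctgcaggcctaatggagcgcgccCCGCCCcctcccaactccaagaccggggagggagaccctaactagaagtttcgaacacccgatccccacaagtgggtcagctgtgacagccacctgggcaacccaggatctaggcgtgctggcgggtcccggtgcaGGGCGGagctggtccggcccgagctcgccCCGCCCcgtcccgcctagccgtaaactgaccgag

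RefSeq windows of this kind were matched to 22 of the 35 members, with 25 windows among them. GGGCGG on either strand was found in 9 of the 25 windows and in 32.7% of all 32851 windows. The counts were 2 in Itga5, 1 in Itgb1, 3 in Itgb5 and 0 in Itgav. GGAATG was found in 3 of the 25 windows (Lamb3, Itga10 and Itgb1) against 12.6% of all, and CCAAT in 4 of 25 against 33.8%. TGANTCA, the AP-1 letters, was found in 1 window (Itgax) against 6.75% of all. TATAAA, found in 12.4% of all windows, and AGGTCA, a half-site of nuclear receptors found in 14.0%, were in none of the 25. The searches covered both strands, and such a match is a description of letters only.

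Across the 32 members, 10 had an interval above 0 and 9 an interval below 0, or 31.2% and 28.1%. Of all genes tested, 26.7% had an interval above 0 and 26.4% one below, so members outside counting error were about as frequent as genes in general. Intervals narrow with counts, and of the genes with a mean of 1000 or more counts 37.3% lay above 0 and 31.8% below. The integrins had 8 of 21 intervals above 0 and 3 below (38.1% and 14.3%), and the laminins 2 of 11 above and 6 below (18.2% and 54.5%). A gene was called when it differed at least 2-fold with an interval that excluded 0. By this rule 1 member was higher (Lama3) and 4 were lower (Itga7, Itgae, Lama1 and Lamb3), or 3.12% and 12.5% of the members. Among all genes tested, 2.71% were called higher and 4.6% lower. A 1.5-fold threshold named the same 5 members, where 5.09% of all genes were called higher and 8.12% lower. Of these 5, 3 (Itgae, Lama1 and Lama3) had a mean under 100 counts. Of the 14 members with a mean of 1000 or more counts, 1 was called lower at 1.5-fold (Itga7) and 0 higher, where 2.84% and 1.43% of such genes were called. The median log2 fold change was 0.02 over all members, 0.09 over the 21 integrins and -0.15 over the 11 laminins, and it was 0.00 over all genes tested.

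**Figure D2:**
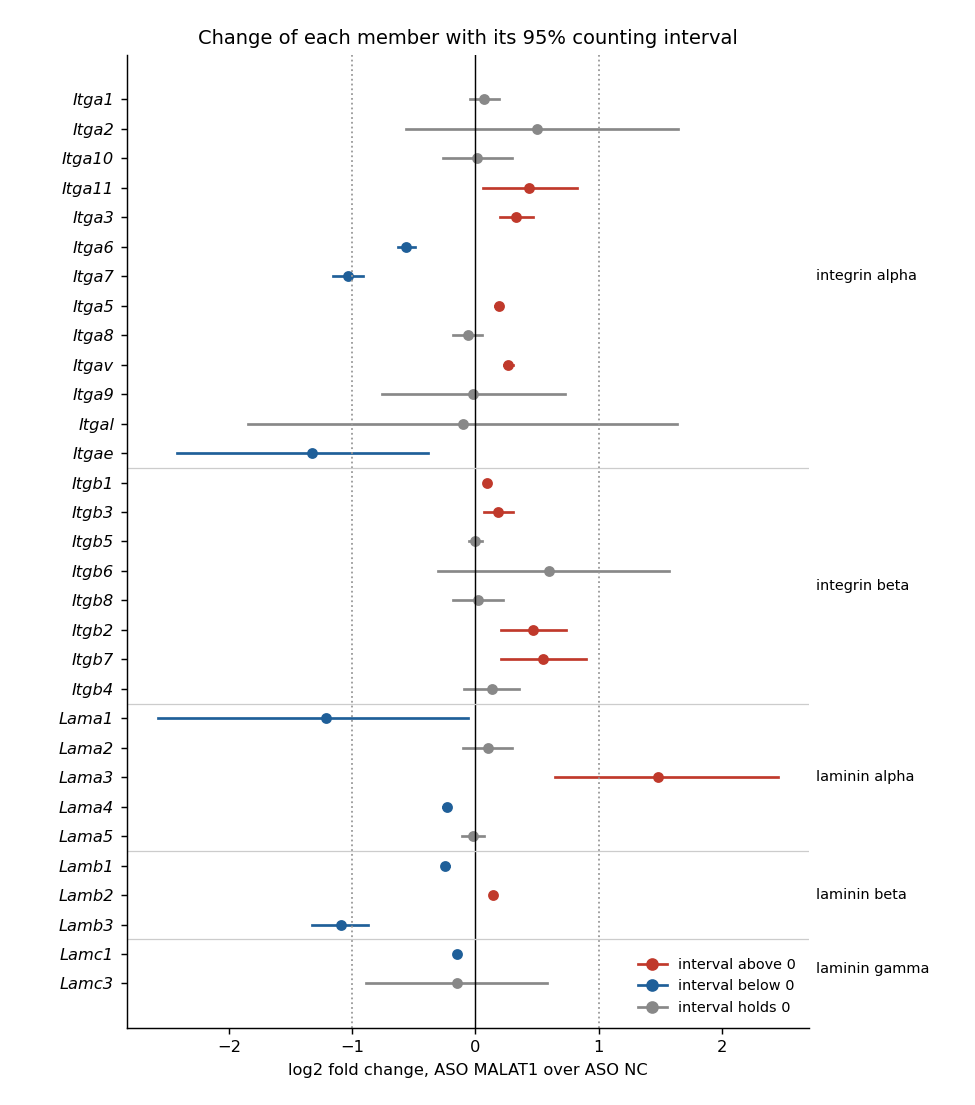
log2 fold change of ASO MALAT1 over ASO NC for 31 of the 32 members, with 95% counting intervals as bars, grouped by chain; dotted lines mark a 2-fold change. Itga6 (-0.56) and Itga7 (-1.03) lie left of 0 with short intervals, Itga5 (0.19) and Itgav (0.27) lie right of it, and the members with few counts have intervals that span a fold change of more than 2.

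Of the alpha chains grouped here as laminin receptors, Itga7 and Itga6 were lower in the knockdown library and Itga3 was higher. Itga5, which binds fibronectin, and Itgav, which binds vitronectin and fibronectin, were higher. Itga7, a laminin receptor chain best known from muscle, had 1589 counts in ASO NC and 835 in ASO MALAT1. It lay 2.05-fold lower in the knockdown library (95% interval 1.88 to 2.23), a log2 fold change of -1.03. Of the genes with a mean of 1000 or more counts, 0.715% lay as low or lower. Itga7 (ENSMUSG00000025348.9) spans chr10:128933818-128958282 (plus strand) in GENCODE M21, which annotates GRCm38, the build in the submitters' processing notes. The table gives 1 count per gene, which does not say which exon or isoform differed. Its exons overlap those of Mettl7b on the other strand by 9 bases.

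Itga6, which pairs with Itgb1 or Itgb4 to bind laminin, had 4291 counts in ASO NC and 3136 in ASO MALAT1. Its log2 fold change was -0.56 (95% interval -0.63 to -0.49), which left 67.9% of the level in ASO NC. The difference was thus under both thresholds. Itga6 (ENSMUSG00000027111.15) spans chr2:71745616-71858416 (plus strand). In the same count class, 3.25% of genes lay as low or lower. Itga3, the remaining alpha chain grouped here as a laminin receptor, differed in the other direction, with 781 and 1059 counts. Its log2 fold change was 0.33 (0.20 to 0.47). Summed over the 3 chains, the laminin receptors went from 115 to 81.0 CPM, the counts scaled to the size of the library.

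Markers of mature fat cells were lower in the same library. All 14 of them had a log2 fold change below 0, 13 with an interval below 0 (92.9%, against 26.4% of all genes tested). Past 2-fold, 11 were called lower (78.6%, against 4.6% of all genes tested). These were Adipoq, Fabp4, Plin1, Lpl, Cidec, Lipe, Pnpla2, Gpd1, Retn, Cfd and Cebpa. The median over all 14 markers was -1.27. Their summed level went from 7373 to 2969 CPM, with Gpd1, an enzyme of glycerol supply for fat, at 30396 and 8692 counts and Fabp4, the fatty acid carrier of adipocytes, at 151625 and 63240. In such bulk samples fewer cells of a type and less RNA per cell cannot be told apart. The part of the mature fat cells in the values of Itga6 and Itga7 was not tested. Of 11 muscle markers, 8 had under 10 counts, and Myod1, Myog, Acta1 and Ttn, which define skeletal muscle, had 0 in both libraries. Des, an intermediate filament of muscle, had 448 and 314 counts (log2 fold change -0.62, -0.83 to -0.41), Myh11 had 67 and 52, and Acta2, which myofibroblasts also make, had 13163 and 16191 (0.19, 0.16 to 0.23).

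Itga5 had 20529 counts in ASO NC and 25212 in ASO MALAT1, a log2 fold change of 0.19 (0.16 to 0.22). Itgav, which binds the RGD motif of vitronectin, fibronectin and latent TGF-beta, had 9618 and 12465 counts and a log2 fold change of 0.27 (0.23 to 0.31). Exons of Gm13684 overlap its own on the other strand by 634 bases. Itga5 and Itgav were thus higher beyond counting error, and both were under 1.5-fold. Differences of this size were common, since 15.4% of genes with a mean of 1000 or more counts lay as high as Itga5 or higher, and 8.79% as high as Itgav or higher. Itga8, an RGD receptor chain known from kidney development and smooth muscle, had 1143 and 1178 counts, and its interval held 0 (-0.18 to 0.06).

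The 4 collagen receptor chains were weaker. Itga1, found on mesenchymal and smooth muscle cells, had 1127 and 1277 counts, with an interval from -0.04 to 0.19, and 6.25% of its longest transcript overlaps Gm49395 on the same strand. Itga11, the fibroblast receptor for fibrillar collagen, had 100 and 146 counts, and its log2 fold change was 0.44 (0.06 to 0.82). Itga10, known from cartilage, had 205 and 223 counts with an interval from -0.27 to 0.30. Of its longest transcript, 34.5% is shared on the same strand with exons of Gm42957, which has no row of that name in the count table. The part of this overlap in the count of Itga10 was not tested. Itga2, known from platelets and epithelia, had 13 and 20 counts, too few to show a difference. Of these 4 chains, Itga11 alone had an interval outside 0.

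Because a ratio of counts within a library does not depend on scaling, chains were also set against each other, in pairs chosen after their values were seen. Itga5 had 4.78 reads for each read of Itga6 in ASO NC and 8.04 in ASO MALAT1, a 1.68-fold change of the ratio (95% interval 1.60 to 1.77). The ratio of Itga5 to Itga7 went from 12.9 to 30.2, a 2.34-fold change (2.15 to 2.55). Against their common partner Itgb1, Itga6 went to 0.636 times its control ratio (0.606 to 0.667) and Itga7 to 0.457 times (0.420 to 0.497), while Itga5 went to 1.07 times (1.04 to 1.09). Itga7 also fell further than Itga6, since the ratio between them changed 0.719-fold (0.654 to 0.791). The laminin receptor chains Itga6 and Itga7 therefore lost ground against Itgb1, Itga5 and Itga3 within the library itself.

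**Figure D3:**
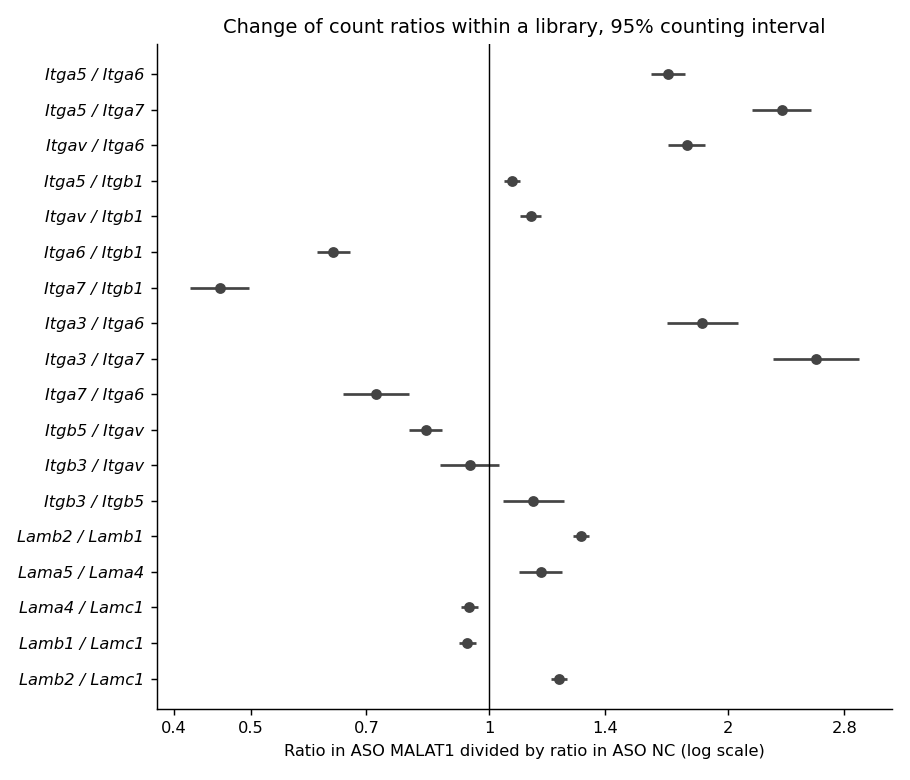
Count ratio of each pair in the ASO MALAT1 library divided by the same ratio in the ASO NC library, on a log scale, with 95% counting intervals as bars; 1 means no change. Itga5 over Itga6 lies at 1.68 and Itga7 over Itgb1 at 0.457, and Itgb3 over Itgav is the pair whose interval holds 1 (0.867 to 1.03).

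The make-up of the alpha chains shifted in the same way. Per transcript length, Itga5 made up 58.6% of the alpha chain level in ASO NC and 63.2% in ASO MALAT1, and Itgav 17.2% and 19.6%. Itga6 made up 12.5% and 8.05%, and Itga7 4.98% and 2.30%. Among the beta chains the make-up hardly differed, with Itgb1 at 85.7% and 86.0% and Itgb5 at 11.3% and 10.7%.

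**Figure D4:**
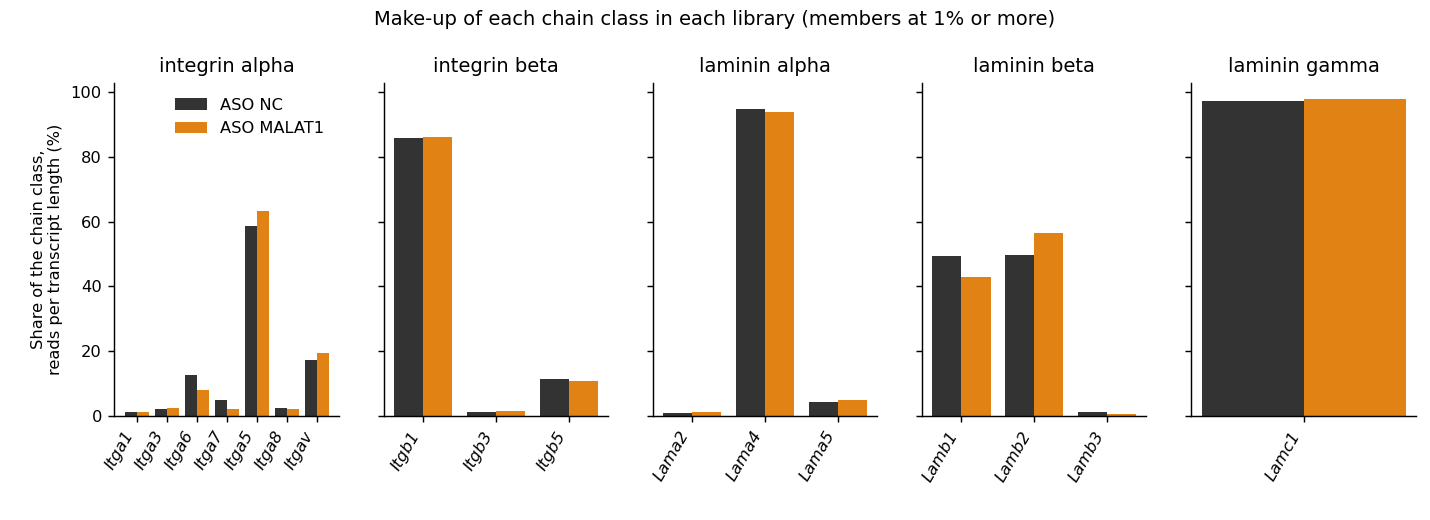
Share of each member in its chain class, in percent of the reads per transcript length summed over the class, for the ASO NC library and the ASO MALAT1 library; 31 members were considered and those at 1% or more in either library are drawn, and bars start at 0. Itga6 goes from 12.5% to 8.05% of the alpha chains and Lamb1 from 49.2% to 43.0% of the laminin beta chains.

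The beta chains differed little. Itgb1 had 44224 counts in ASO NC and 50848 in ASO MALAT1, a log2 fold change of 0.09 (0.08 to 0.11). Itgb5 had 5031 and 5418 counts, and its interval ran from -0.06 to 0.06, the narrowest of the intervals that held 0. Itgb3, the vitronectin receptor chain of platelets and osteoclasts that also pairs with Itgav, had 1078 and 1319 counts and a log2 fold change of 0.18 (0.07 to 0.30). Against Itgav, Itgb5 went to 0.831 times its control ratio (0.793 to 0.871). Itgb8, which binds latent TGF-beta together with Itgav, had 388 and 424 counts, and Itgb6, its epithelial relative, had 17 and 28. The intervals of both held 0. Itgb4, the partner of Itga6 in the hemidesmosomes of epithelia, had 307 and 362 counts, with a log2 fold change of 0.13 (-0.09 to 0.36). Its exons overlap B230344G16Rik on the other strand by 537 bases.

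Several members are best known from blood cells. Itgb2, the beta chain of the leukocyte integrins, had 204 counts in ASO NC and 304 in ASO MALAT1, a log2 fold change of 0.47 (0.21 to 0.73). Itgb7, which guides lymphocytes to the gut, had 116 and 183 counts and a log2 fold change of 0.55 (0.21 to 0.90). Both lay higher and under 1.5-fold. Their usual alpha partners were nearly absent. Itgal had 7 counts in each library, Itgam 0 and Itgax 1, and a count of 0 allows up to 3 counts, or 0.0520 CPM in ASO NC and 0.0483 CPM in ASO MALAT1. Itgae, the partner of Itgb7 on intraepithelial lymphocytes, had 31 and 13 counts, and its log2 fold change was -1.33 (-2.42 to -0.38). In its count class 10.8% of genes lay as low or lower. Ncbp3, the gene just before it on the same strand, had 414 and 35 counts, and its part in the value of Itgae was not tested. Of 12 leukocyte markers, 7 had under 10 counts, and Ptprc, the pan-leukocyte marker, had 0 in both libraries, as did Adgre1 and Cd3e. The summed level of the 5 leukocyte markers with more counts was 9.53 CPM in ASO NC and 11.3 CPM in ASO MALAT1. Of these, Csf1r (3 and 13 counts) and Lyz2 (7 and 25 counts) were called higher, where 2.71% of all genes tested were. Cd14 had 362 and 536 counts, and Cd68 had 172 and 119. The part of these leukocyte markers in the values of Itgb2 and Itgb7 was not tested.

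Itga4 and Itga9, close relatives that bind fibronectin, Vcam1 and tenascin, were weak, with 2 counts of Itga4 in each library and 32 and 34 counts of Itga9.

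Laminin chains of the main trimers were slightly lower, with Lamb2 as the exception. Lama4, the alpha chain of fat, muscle and vessel basement membranes, had 25495 counts in ASO NC and 23340 in ASO MALAT1, a log2 fold change of -0.23 (-0.26 to -0.21). Lamb1, a beta chain found in most basement membranes, had 25102 and 22840 counts and a log2 fold change of -0.24 (-0.27 to -0.22). Lamc1, the gamma chain of most laminins, had 31356 and 30411 counts and a log2 fold change of -0.15 (-0.17 to -0.13). Lamb2, the beta chain of the neuromuscular junction and the kidney filter that can take the place of Lamb1, had 24641 and 29249 counts and a log2 fold change of 0.14 (0.12 to 0.17). The genes span chr10:38965515-39110188 (Lama4, plus strand), chr12:31265234-31329644 (Lamb1, plus strand), chr1:153218922-153332786 (Lamc1, minus strand) and chr9:108479736-108490530 (Lamb2, plus strand). The differences of these 4 chains exceed counting error but are small beside the spread of genes with such counts, since 12.0% of them lay as low as Lamb1 or lower and 22.7% as high as Lamb2 or higher.

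The laminin beta chains drew apart. Per transcript length, Lamb1 and Lamb2 made up 49.2% and 49.7% of the laminin beta chains in ASO NC, and 43.0% and 56.5% in ASO MALAT1. The count ratio of Lamb2 to Lamb1 went from 0.982 to 1.28, a 1.30-fold change (1.27 to 1.34). Relative to Lamc1, Lamb2 went up 1.22-fold (1.20 to 1.25) while Lamb1 went to 0.938 times its control ratio (0.916 to 0.961) and Lama4 to 0.944 times (0.922 to 0.967). Lama4 remained the alpha chain with 94.8% and 93.9% of the class, and Lamc1 the gamma chain with 97.2% and 97.8%.

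The minor laminin chains held the larger fold changes. Lamb3, a chain of the epithelial laminin of the skin, had 482 counts in ASO NC and 243 in ASO MALAT1. It was 2.13-fold lower, a log2 fold change of -1.09 (-1.32 to -0.87), and 2.13% of genes with 100 to 1000 counts lay as low or lower. The gene spans chr1:193207699-193343878 (plus strand). Lama3, an alpha chain that assembles with Lamb3, went the other way with 15 and 46 counts, a log2 fold change of 1.48 (0.64 to 2.46). Lamb3 and Lama3 therefore differed in direction, and 6.96% of genes with as few counts as Lama3 were as high or higher. Gm29200 overlaps Lama3 on the other strand by 197 bases. Lama1, the alpha chain of the early embryo, had 20 and 9 counts, with a log2 fold change of -1.21 (-2.58 to -0.06). In its count class 12.3% of genes lay as low or lower. Lama5, the widespread epithelial and vascular alpha chain, had 2118 and 2250 counts and an interval from -0.11 to 0.07. Lama2, the muscle and nerve alpha chain, had 385 and 444 counts, and Lamc3 had 34 and 33. The intervals of Lama5, Lama2 and Lamc3 held 0.

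Partner genes were read from lists written from general knowledge. Their counts stand beside the 26.7% of all genes tested with an interval above 0 and the 26.4% with one below, or 37.3% and 31.8% at a mean of 1000 or more counts. Past 2-fold, 2.71% of all genes tested were called higher and 4.6% lower. Of 15 tested talins, kindlins and further inner adhesion proteins, 8 had an interval above 0 and 2 below (53.3% and 13.3%), with a median log2 fold change of 0.12. Parvb, a parvin that links integrin-linked kinase to actin, had 2296 and 3060 counts (log2 fold change 0.31, interval 0.23 to 0.39), and Parva had 13839 and 16541 counts (0.15, 0.12 to 0.18). Kank2, which binds talin, had 8619 and 10445 counts (0.17, 0.13 to 0.21). The single gene of this list called past 2-fold was Parvg, the blood cell parvin, with 4 and 23 counts. Of 20 focal adhesion signalling and actin linker genes, 13 had an interval above 0 and 4 below (65.0% and 20.0%), with a median of 0.09 and 0 called past 2-fold. Flna and Actn1, actin cross-linkers, had log2 fold changes of 0.21 (0.20 to 0.23) and 0.27 (0.24 to 0.29). Bcar1, a docking protein, had 0.26 (0.21 to 0.30). Ptk2b, a relative of focal adhesion kinase, was lower, with 667 and 445 counts (-0.69, -0.87 to -0.52).

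Of the 15 tested basement membrane proteins other than laminins, 7 had an interval above 0 and 4 below (46.7% and 26.7%), and their median was -0.01. Col4a2, which with Col4a1 forms the main collagen of basement membranes, had 154645 and 147030 counts (-0.18, -0.19 to -0.17), and Col18a1 had 2509 and 1970 (-0.46, -0.54 to -0.37). Agrn, which ties laminin to dystroglycan, was higher with 10232 and 13190 counts (0.26, 0.22 to 0.30). Fras1 was called lower on 10 and 2 counts. Of the 14 laminin receptors and related genes that are not integrins, 7 had an interval above 0 and 5 below (50% and 35.7%). Past 2-fold, 1 was called higher and 2 lower (7.14% and 14.3%, against 2.71% and 4.6% of all genes tested). Mcam, a surface protein that binds Lama4-containing laminin, had 3233 counts in ASO NC and 1385 in ASO MALAT1, a log2 fold change of -1.33 (-1.42 to -1.24). Bcam, the Lutheran receptor for Lama5, was called higher on 4 and 16 counts. Sdc1, a heparan sulfate proteoglycan that binds laminin, had 13918 and 17349 counts (0.21, 0.18 to 0.24). Dag1, the gene of dystroglycan, named after its values were seen, had 34584 and 35305 counts. Its interval lay below 0, as that of Mcam did, with a smaller difference (-0.08, -0.10 to -0.06).

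Integrin ligands other than laminins had a median of 0.19 over 21 genes, with 12 intervals above 0 and 3 below (57.1% and 14.3%). Spp1 (osteopontin), a ligand of Itgav integrins, had 71895 and 104528 counts (0.43, 0.42 to 0.45). Tnc (tenascin C) had 12097 and 16169 counts (0.31, 0.28 to 0.35), and Fbn1 (fibrillin) had 20289 and 26189 (0.26, 0.24 to 0.29). Vtn, the gene of vitronectin, had 10 and 0 counts and was at least 3.59-fold lower if its 10 counts are taken as exact and a count of 0 as at most 3. With the counting error of both libraries, the upper end of its interval was -1.27 on the log2 scale. Among 11 membrane proteins that associate with integrins, 6 had an interval above 0 and 3 below (54.5% and 27.3%), with a median of 0.07. Plaur, the urokinase receptor, had 458 and 844 counts (0.77, 0.61 to 0.94), and Cd44, the hyaluronan receptor, had 8145 and 11120 (0.34, 0.30 to 0.38). Cd151, the tetraspanin partner of laminin-binding integrins, was slightly lower with 9562 and 9078 counts (-0.18, -0.22 to -0.14), and so was Slc3a2 (-0.16, -0.20 to -0.13). In each of these partner lists the share of intervals above 0 was larger than the share below, as it was in the integrins, whereas in the laminins the share below was larger. Their medians lay between -0.01 and 0.19. These shares are descriptions of 1 library pair, with no test.

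**Figure D5:**
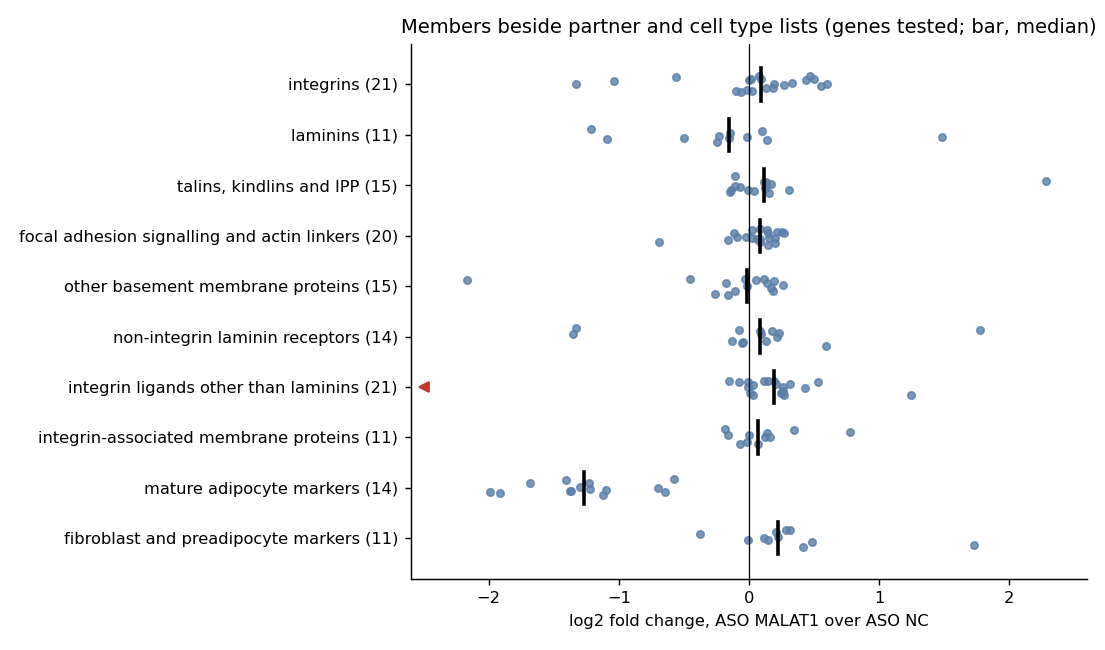
log2 fold change of ASO MALAT1 over ASO NC for each tested gene (points) of the integrins, the laminins, 6 lists of partner genes and 2 lists of cell type markers, with the number of genes in parentheses and the median as a black bar; the red triangle is a gene beyond the axis (Vtn). Mature adipocyte markers lie around -1.27, while the medians of the integrins (0.09) and laminins (-0.15) lie near 0.

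Markers of the other cell types that the members are known from were measured beside them. Of 11 tested fibroblast and preadipocyte markers, 9 had an interval above 0 and 1 below (81.8% and 9.09%), with a median of 0.23 and a summed level of 15230 and 17190 CPM. Cd34 was called higher on 19 and 69 counts, and Pdgfrb, S100a4 and Ly6a had log2 fold changes of 0.32, 0.41 and 0.28. Pi16, the marker with an interval below 0, had 163 and 135 counts (-0.38, -0.72 to -0.04), and the interval of Col3a1 held 0. Dlk1 had 0 counts and Dpp4 0 and 1. The 10 members with an interval above 0 were Itga3, Itga5, Itga11, Itgav, Itgb1, Itgb2, Itgb3, Itgb7, Lama3 and Lamb2. They have the sign of most of the fibroblast list, and the 9 with an interval below 0 that of the mature adipocyte list. Any gene with an interval outside 0 matches 1 of these lists in sign, so the match is no result about the members. The part of either cell type in these differences was not tested. Of 9 epithelial markers, 8 had under 10 counts, with Epcam and Krt5 at 0, while Cdh1 had 48 and 61 counts. The part of epithelial cells in the values of Lamb3, Lama3 and Itgb4 was not tested. Of 9 endothelial markers 5 had under 10 counts and Cdh5 had 0 and 1, while Vwf (12 and 30 counts) and Emcn (20 and 45 counts) were called higher. Of 7 platelet markers 6 had under 10 counts. Of 7 Schwann and neural markers Sox10 had 0 counts, and Mbp (14 and 37 counts) and Tubb3 (6 and 24 counts) were called higher.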

How the data were processed

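Total RNA from 1 culture per condition was depleted of rRNA and made into libraries with a directional kit, per the labels. The submitters' processing notes name HISAT2 and GRCm38. The counting tool, annotation, strand setting and treatment of reads with several matches are not given in the sources used here. The authors deposited 1 table of raw read counts per gene symbol, without normalization, and each column carries the title of its sample.

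Genes with at least 10 summed counts were kept and libraries scaled with edgeR's TMM factors (0.992 and 1.01; edgeR 4.0.16, R 4.3.3). Log2 fold changes used a prior count of 0.5, and 95% intervals came from Clopper-Pearson limits (scipy 1.17.1), so depth alone sets their width. Ratio intervals used the normal approximation on the log scale. No test across replicates was possible, and no p-value was computed from replicates. The interval code was checked on simulated counts with counting error only, which the intervals assume. That check covers the code and says nothing about variation between cultures or PCR copies. Lengths and positions came from GENCODE M21, which matched 88.3% of tested genes. Calls need a 2-fold difference and an interval excluding 0. Exons of several members overlap other genes, and without a known strand setting reads there cannot be told apart. Of the overlapping genes named above, Gm49395, Gm42957, Gm13684 and Gm29200 have no row of that name in the count table.

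Each member with at least 10 counts is named, except 1 that is not reported here, as is 1 gene of the partner lists, and of other lists every gene called plus the genes with intervals farthest from 0, up to 4. Some symbols that the rule names in the cell type lists are given by counts of genes only. Members, lists and tests were chosen with earlier results of these data known, and the chain ratios, motifs and neighbouring genes after their values were seen. Ccn1 and Ccn2 were matched as Cyr61 and Ctgf. Alternatives covered scaling, the filter on low counts, the prior count, DESeq2 1.42.0 size factors, an exact binomial test, and edgeR's exact test with a preset variation between cultures.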

Additional observations from a re-analysis of the deposited data

How the results depend on the processing

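All 32 members stayed called or not called at both thresholds under library totals, DESeq2 size factors, upper-quartile factors, a filter of at least 1 summed count and a prior count of 2. So did the 30 members left when each library needed at least 10 counts. Members whose interval excluded 0 kept their direction in each of these. Lama5 and Itga9 changed sign with library totals, and Itgb5 with at least 10 counts in each library, where all lay within 0.03 of 0. The scalings moved no member by more than 0.0221 on the log2 scale, and the prior count by at most 0.12. The median over the members kept its sign in all of these, but at 0.02 it lies close to 0. These data cannot estimate the variation between cultures, so other call rules were tried. With an exact binomial test, which assumes none, and p adjusted over all genes, 3 members were called lower (Itga7, Itgae and Lamb3) and 1 higher at either threshold. With edgeR's exact test with the biological coefficient of variation preset to 0.1 and an adjusted p under 0.05, 2 members were called lower (Itga7 and Lamb3) at either threshold, in place of 4, and Lama3 was still called higher. With the same test and adjustment at 0.2, 0 were called higher and 0 lower at either threshold. Without the condition on the interval, 2 members in place of 1 were past 1.5-fold higher, Itgb6 being added. Shares within a chain class use the longest annotated transcript, and by coding length Itgav makes up 24.8% of the alpha chains in ASO NC in place of 17.2%. No paired analysis was possible because each condition has 1 library, and for the same reason no library could be left out. The 8 members with a mean under 100 counts have intervals wider than 1 on the log2 scale, which limits what this depth can show for them.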

Other observations

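Some genes with related symbols are left out by the rule on symbols. Itgbl1, a secreted protein with integrin-like repeats that is not a receptor chain, had 3336 counts in ASO NC and 4566 in ASO MALAT1, a log2 fold change of 0.35 (95% counting interval 0.28 to 0.41). Itga2b, the alpha chain of the platelet fibrinogen receptor, had 326 and 365 counts (0.06, -0.16 to 0.28), and Pf4 and Ppbp, which platelets make in large amounts, had 0 counts in both libraries. Itgb1bp1, which binds the tail of Itgb1, had 1720 and 2016 counts (0.12, 0.03 to 0.22). Itgad, a leukocyte alpha chain, had 6 and 0 counts and was too weak for a comparison. These genes were named after their values were seen.

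Itgae spans chr11:73090583-73147446 and lies next to Ncbp3, a cap-binding protein gene that had 414 counts in ASO NC and 35 in ASO MALAT1, a log2 fold change of -3.65. Itgae, which follows Ncbp3 on the same strand, had -1.33. Other genes close by had values on both sides, with -2.63 for Shpk (14 and 2 counts), -1.02 for Trpv1 (74 and 39 counts), 0.03 for Tax1bp3 (90 and 99 counts) and 0.71 for Camkk1 (40 and 71 counts). The part of the neighbouring gene in the difference of Itgae was not tested.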
